A study of Mus musculus with 9 samples.

Results

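T-cell receptors of the inguinal lymph node were compared between a wild-type (WT) and a 5xFAD library, each a droplet library in which the alpha (TRA) and beta (TRB) chains of single cells were sequenced. 5xFAD mice express transgenes with mutations of familial Alzheimer's disease. All mice were females aged 10 to 11 months, and the labels give no treatment for either genotype. Cells from tubes with above 87% viability were tagged with hashtag antibodies and pooled in equal numbers, and the number of animals behind each pool is not given. Barcodes counted as cells when they carried a single productive TRB chain together with 1 or 2 TRA chains that were productive as well. This rule gave 1688 cells in WT and 1151 in 5xFAD, 2839 of the 23051 cells of the series. There was 1 library for each genotype, so intervals cover counting error only, no p-value can be given, and genotype, pool and library cannot be told apart.

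Each T-cell receptor chain is assembled during thymic development by joining V and J segments, with a D segment between them in TRB, and bases are trimmed and added at the joints. The junction that results is the most variable part of the chain and contacts the peptide. A TRB chain is made first, and the TRA locus can then rearrange on both chromosomes, so that a single cell can carry a pair of productive TRA chains. The inguinal node drains skin and soft tissue of the lower body.

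The tables held 4680 productive contigs in WT and 4047 in 5xFAD, on 2755 and 2772 barcodes. Summed over contigs there were 38922 and 35274 unique molecular identifiers (UMIs), and 22978025 and 9176644 reads. The labels call the cells immune cells, and 0 contigs in either library came from gamma, delta or immunoglobulin loci. As the libraries were made from TRA and TRB chains, they describe alpha-beta T cells. They cannot show whether gamma-delta T cells or B cells were among the cells loaded. The pair of libraries shared 4 barcodes, and on 0 of these was a junction shared as well. Clonotypes, defined by V, J and junction nucleotides of both chains, numbered 1662 in WT and 1142 in 5xFAD.

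A TRA chain was found less often in 5xFAD. Paired cells made up 61.3% of WT barcodes (1688 of 2755, exact Clopper-Pearson 95% interval 59.4 to 63.1) and 41.5% of 5xFAD barcodes (1151 of 2772, 39.7 to 43.4). Barcodes with a TRB chain alone took the larger part of the gap, at 27.1% in WT (25.5 to 28.8) and 45.1% in 5xFAD (43.2 to 46.9). Barcodes with a TRA chain alone were less far apart, at 9.51% (8.44 to 10.7) and 11.9% (10.7 to 13.1). Among barcodes with 1 TRB chain, 69.3% in WT and 48.0% in 5xFAD had a TRA chain. A TRB chain was also found less often in 5xFAD. Among barcodes with a TRA chain, 87.0% in WT (85.4 to 88.4) and 78.4% in 5xFAD (76.2 to 80.4) had a TRB chain.

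TRB depth did not differ in the same way. The median TRB contig had 9 UMIs in both libraries, and the median TRA contig 5 in WT and 6 in 5xFAD. At 3 to 5 TRB UMIs, 63.7% of WT barcodes (59.2 to 68.0) and 47.5% of 5xFAD barcodes (42.7 to 52.4) were paired. At 6 to 10 UMIs the shares were 69.0% and 44.6%, and at 11 to 20 UMIs 71.1% and 49.6%. The intervals of the libraries did not overlap in any class from 3 UMIs up, whereas at 1 to 2 UMIs they did, at 82.8% (75.1 to 88.9) and 77.5% (67.4 to 85.7). Reads per UMI were lower in 5xFAD, with a median of 490 in WT and 194 in 5xFAD for TRB contigs and of 150 and 86.6 for TRA contigs. Their part in the gap was not tested.

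**Figure D1:**
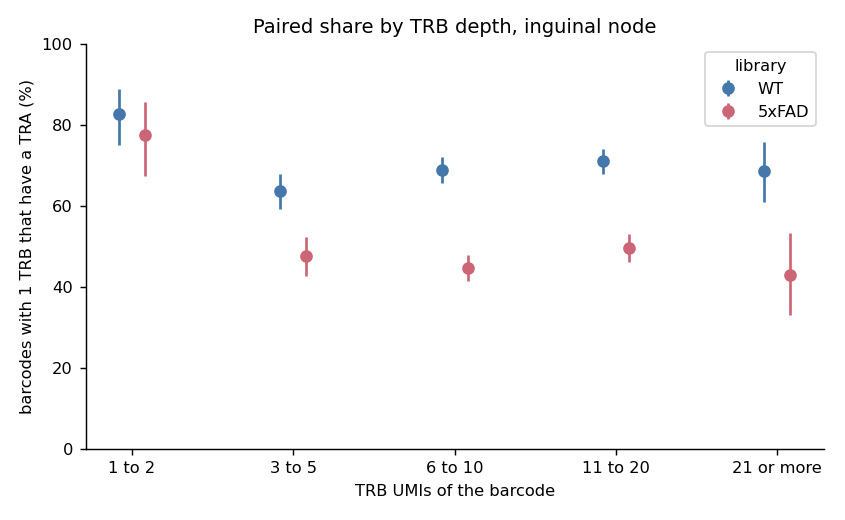
Share of barcodes with 1 TRB chain that also had a TRA chain (y axis, percent) by the number of TRB UMIs of the barcode (x axis), with exact 95% counting intervals. From 3 TRB UMIs up, WT lay between 63.7% and 71.1% and 5xFAD between 43.0% and 49.6%.

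The gap was seen in most TRBV genes, as the paired share was lower in 5xFAD for 19 of 21. The exceptions were TRBV15, at 43.6% of 39 barcodes in WT and 49.02% of 51 in 5xFAD, and TRBV12-1, at 62.2% of 45 and 63.9% of 36, with overlapping intervals for both. In all 14 TRBV genes with at least 40 such barcodes in each library, the paired share was lower in 5xFAD, and it ran from 64.7% to 74.2% in WT and from 36.6% to 60.6% in 5xFAD. TRBV13-2 had the highest 5xFAD share, at 60.6% of 218 barcodes (53.7 to 67.1), against 68.9% of 331 in WT. TRBV26 had the lowest, at 36.6% of 112 (27.7 to 46.2), against 69.3% of 75 in WT. Paired shares of the 14 genes therefore spread more widely in 5xFAD than in WT. Contigs of 5xFAD also held fewer bases ahead of the V region: the median was 106 in 5xFAD and 116 in WT for TRA, and 84 and 90 for TRB. TRA contigs with over 150 such bases made up 7.17% of 1561 in 5xFAD (5.94 to 8.57) and 16.4% of 2129 in WT (14.8 to 18.0).

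A second TRA chain was found in 109 of 1688 WT cells, 6.46% (5.33 to 7.74), and in 37 of 1151 5xFAD cells, 3.21% (2.27 to 4.40). These intervals did not overlap. In the deep cervical node the share was 4.48% in WT and 6.38% in 5xFAD. In the superficial cervical node it was 5.699% and 7.997%. Both cervical differences thus went the other way, with overlapping intervals. Among inguinal barcodes with 1 TRB chain, a TRA chain of any kind was found on 69.3% in WT and 48.0% in 5xFAD. The part of this gap in the count of second TRA chains was not tested.

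The libraries differed in the forms of their TRA V segments. Of the TRA chains, 55.2% in WT (1175 of 2129) and 14.99% in 5xFAD (234 of 1561) were identical to a V region of the GRCm38 genome from the first base of the mature V region to the junction. In the deep and superficial cervical nodes these shares were 54.7% and 54.0% in WT, and 13.1% and 12.9% in 5xFAD. The beta locus gave no such gap, with 96.0% of WT and 95.9% of 5xFAD TRB chains identical in the inguinal node. Both TRA forms could be read in segments that the genome holds in 1 copy. TRAV1 lies on chromosome 14 (GENCODE annotation of GRCm38, chr14:52427928-52428876), near the end of the array farthest from the J segments. The reference form was found in 8 of 26 WT chains and 0 of 33 5xFAD chains, and a form with 8 substitutions in 18 of 26 and 32 of 33. The forms are shown because they set the libraries apart base by base, and capitals mark the bases at which they differ.

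TRAV1 reference form: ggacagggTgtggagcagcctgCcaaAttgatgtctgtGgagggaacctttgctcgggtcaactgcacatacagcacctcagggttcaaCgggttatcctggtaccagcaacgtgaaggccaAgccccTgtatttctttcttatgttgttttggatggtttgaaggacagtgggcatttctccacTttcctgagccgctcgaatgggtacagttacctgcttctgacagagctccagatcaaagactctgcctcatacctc
TRAV1 other form: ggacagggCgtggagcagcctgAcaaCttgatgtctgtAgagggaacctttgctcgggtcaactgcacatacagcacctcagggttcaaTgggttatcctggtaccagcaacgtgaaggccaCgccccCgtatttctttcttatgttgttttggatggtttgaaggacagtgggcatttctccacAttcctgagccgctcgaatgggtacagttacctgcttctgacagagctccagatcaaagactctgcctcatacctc

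Counted from the first base shown, and with the reference base first, the substitutions were T9C, C23A, A27C, G39A, C90T, A123C, T129C and T186A. TRAV21, named TRAV21/DV12 in the annotation (chr14:53875984-53876752) and near the J end of the array, showed the same split. Its reference form was found in 22 of 36 WT chains and 0 of 39 5xFAD chains, and its other form, which carries T138C and C226A, in 14 of 36 and 39 of 39.

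TRAV21 reference form: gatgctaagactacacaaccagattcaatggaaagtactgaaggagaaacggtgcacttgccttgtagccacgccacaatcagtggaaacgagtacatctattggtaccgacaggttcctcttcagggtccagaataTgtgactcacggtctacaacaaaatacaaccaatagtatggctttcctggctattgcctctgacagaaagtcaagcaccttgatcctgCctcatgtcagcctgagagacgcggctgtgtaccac
TRAV21 other form: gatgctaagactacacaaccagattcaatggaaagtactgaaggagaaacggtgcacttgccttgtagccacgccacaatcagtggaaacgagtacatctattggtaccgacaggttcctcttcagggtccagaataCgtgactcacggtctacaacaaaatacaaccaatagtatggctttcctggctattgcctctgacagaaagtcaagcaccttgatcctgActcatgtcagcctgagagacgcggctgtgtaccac

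WT thus held both forms of each segment and 5xFAD held none of the reference form at this depth, a count of 0 that allows a share of up to 3 chains. TRAV19 gave 12 of 22 reference chains in WT and 0 of 7 in 5xFAD. In 8 TRAV subgroups (TRAV1, TRAV4, TRAV5, TRAV10, TRAV13, TRAV14, TRAV16 and TRAV21), chosen because 0 of at least 30 5xFAD chains of each were identical to the reference, 467 of 953 WT chains were identical (95% interval 45.8% to 52.2%). The 5xFAD value over these subgroups, 0 of 690, follows from that choice. The labels name no strain. Within the inguinal node the form of the TRA locus therefore cannot be told apart from genotype, pool and library. This holds for each TRAV and TRAJ ratio between the libraries. Chains identical to the reference were more frequent in WT in the cervical nodes too.

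Cells with a pair of TRA chains show how the forms were spread over cells. In WT, 91 of the 109 such cells, 83.5% (75.2 to 89.9), had 1 chain identical to the reference and 1 that was not. In 14 both chains were identical and in 4 neither was. In 5xFAD, 16 of 37 had 1 of each, 21 had neither and 0 had both. Restricted to cells in which both chains came from the 8 subgroups, 28 of 29 WT cells, 96.6% (82.2 to 99.9), carried 1 chain of each form and the other cell carried both in the reference form. The same count was 7 of 9 in the deep cervical and 21 of 22 in the superficial cervical WT library. It was 0 of 34 and 0 of 41 in the 5xFAD libraries of those nodes. The inguinal 5xFAD value, 0 of 3, follows from the choice of the subgroups. Among these WT cells both forms thus occurred within single cells. Barcodes that hold more than 1 cell were not looked for beyond the limit on the number of chains, and their part in these counts was not tested.

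**Figure D2:**
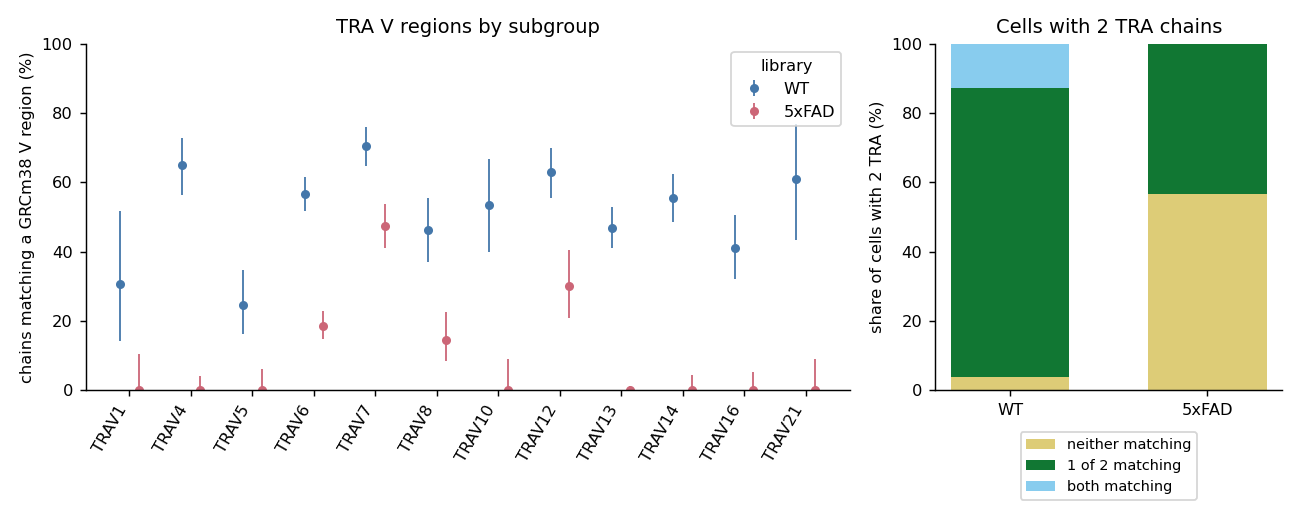
Left, share of TRA chains identical to a GRCm38 V region (y axis, percent) by TRAV subgroup, for subgroups with at least 20 chains in each library, with exact 95% intervals. Right, cells with a pair of TRA chains by how many of them were identical (percent of cells). In WT 83.5% of these cells had 1 of each, and in 5xFAD 56.8% had neither.

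V and J use was counted in clonotypes, so that a repeated clone counts once. Of 95 features seen (genes of the TRBV, TRBJ and TRAJ families, and TRAV by subgroup), 77 had a mean of at least 20 clonotypes over both libraries, and 10 of these, 13% of those tested, differed at least 1.5-fold in share. Lower in 5xFAD were 7 (9.09%), namely TRAV9, TRBV2, TRAV3, TRBV19, TRAJ22, TRAJ6 and TRBV17, and higher were 3 (3.9%), namely TRBV15, TRAJ57 and TRAV1. The minimum was set on raw counts, and WT held more clonotypes (1662 against 1142), so features high in WT passed it more easily. TRAV9 passed at a mean of 22 through its 40 WT clonotypes, against 4 in 5xFAD. The numbers in each direction therefore cannot be set against each other. Ratios lay above 0 for 38 features and below for 39, with a median log2 ratio of -0.02. The smallest difference inside the limit was that of TRBV17, at a log2 ratio of -0.59, and the largest outside it that of TRBV16, at -0.58. The median absolute log2 ratio over the 77 features was 0.29 here, against 0.21 and 0.26 between genotypes in the deep and superficial cervical nodes. Between nodes of the same genotype it was 0.21 and 0.19 from the inguinal WT library to those of the deep and superficial cervical nodes, and 0.21 and 0.30 for the 5xFAD libraries. The inguinal median therefore lay within the range of medians between libraries that share a genotype, while the largest ratio, 2.63 in size, was above theirs, which ran from 0.93 to 2.46.

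TRBV2, the first gene of the main TRBV array (chr6:41047340-41047995), made up 55 of 1662 clonotypes in WT, 3.31% (2.503 to 4.29), and 6 of 1142 in 5xFAD, 0.53% (0.19 to 1.14). The log2 ratio of 5xFAD over WT was -2.55 (95% counting interval -3.72 to -1.39). Paired or not, 69 WT and 9 5xFAD barcodes with 1 TRB chain used TRBV2, of which 13 and 3 had no TRA chain, and the ratio over distinct chains was -2.86. WT barcodes with TRBV2 had a median of 3 TRB UMIs, against 7 for the 9 barcodes in 5xFAD and 9 over all TRB contigs of each library.

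TRBV19 (chr6:41178375-41179048) made up 2.95% of WT clonotypes (2.19 to 3.88) and 1.58% of 5xFAD clonotypes (0.94 to 2.48), a log2 ratio of -0.88 (-1.64 to -0.12). TRBV17 (chr6:41163062-41163556) had 40 and 18 clonotypes, and its interval, -1.38 to 0.20, included 0. TRBV15 (chr6:41141188-41141658) went the other way, at 1.02% of WT (0.60 to 1.63) and 2.19% of 5xFAD clonotypes (1.42 to 3.21), a log2 ratio of 1.08 (0.21 to 1.955). Over all barcodes with 1 TRB chain, paired or not, TRBV15 stood at 0.49 and TRBV17 at -0.24, both inside the 1.5-fold limit. TRBV17 was also inside it with cells counted (-0.50), with extra chains kept (-0.48), and at -0.57 both with at least 2 UMIs and with a pseudocount of 1. TRBV2 and TRBV19 stayed outside it, TRBV19 at -1.20.

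The most used TRBV gene in WT was TRBV13-2 at 13.4% (11.8 to 15.2), followed by TRBV1 at 9.81% and TRBV13-3 at 8.78%. In 5xFAD TRBV1 came first at 12.6% (10.7 to 14.7), followed by TRBV13-2 at 11.4% (9.60 to 13.4) and TRBV13-1 at 10.6%. The intervals of TRBV1 and TRBV13-2 overlapped between libraries and the order of these genes is not settled by the counts. The 9 genes that SJL mice are known to lack, TRBV12-1 to TRBV17, made up 45.2% of WT (42.8 to 47.6) and 45.7% of 5xFAD clonotypes (42.8 to 48.7). Of these genes 5 had a ratio above 0 and 4 below, with a median of 0.11, against 9 above and 10 below and a median of -0.11 over the 19 TRBV genes tested.

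**Figure D3:**
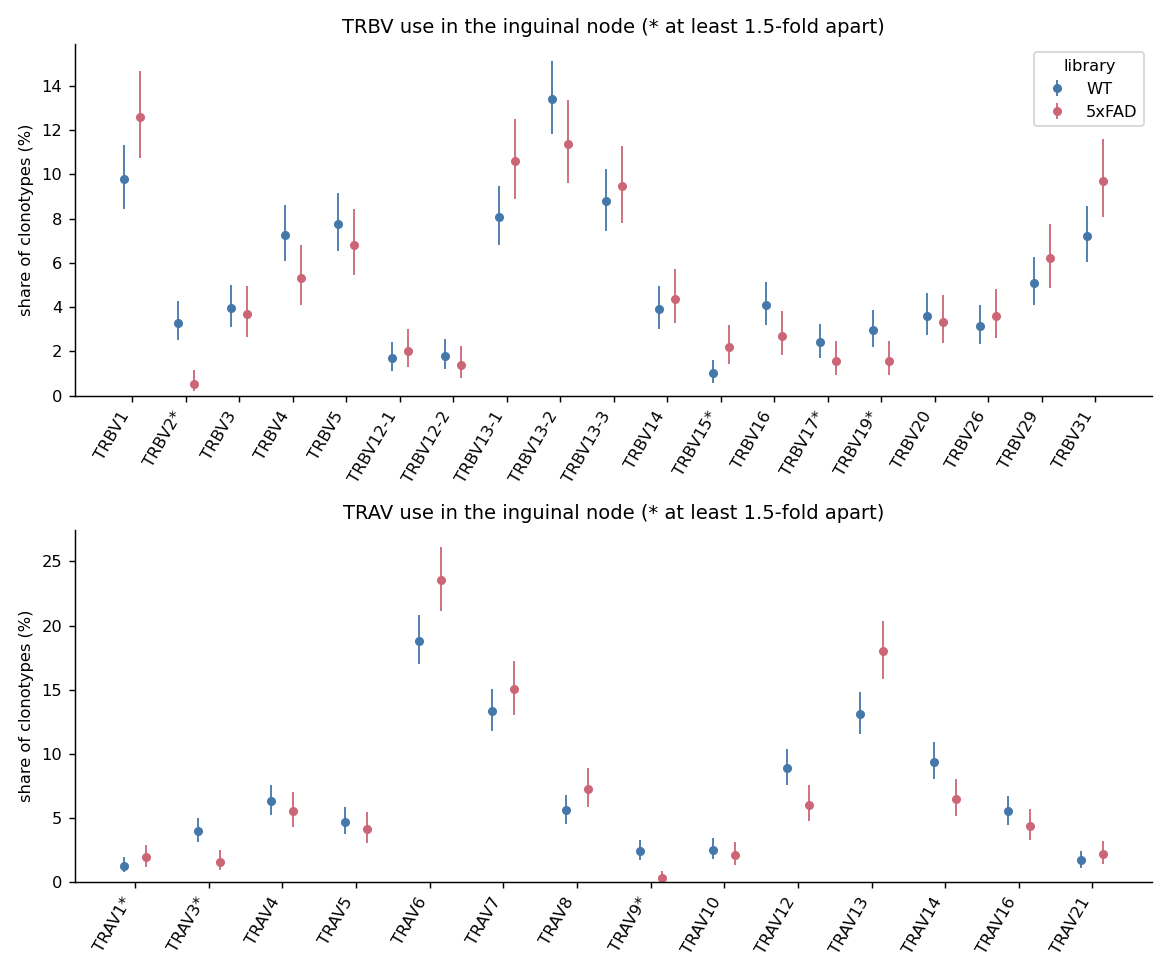
Share of clonotypes (y axis, percent) by TRBV gene (top) and TRAV subgroup (bottom) with a mean of at least 20 clonotypes, in WT and 5xFAD, with exact 95% counting intervals; an asterisk marks at least 1.5-fold. TRBV2 stood at 3.31% and 0.53%, and TRAV9 at 2.41% and 0.35%.

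Among TRAV subgroups, TRAV9, known for its use by CD8 T cells, made up 40 clonotypes in WT, 2.41% (1.73 to 3.26), and 4 in 5xFAD, 0.35% (0.10 to 0.89), a log2 ratio of -2.63 (-4.03 to -1.23). TRAV3 made up 3.97% of WT (3.08 to 5.02) and 1.58% of 5xFAD clonotypes (0.94 to 2.48), a ratio of -1.305 (-2.04 to -0.57). With ambiguous calls left out TRAV3 stood at -0.58, inside the limit. More than 1 V gene was named for 21.5% of TRA contigs in WT (19.7 to 23.3) and 5.45% in 5xFAD (4.37 to 6.69). TRAV1, the subgroup of MAIT cells, made up 1.26% and 1.93%, a ratio of 0.61 whose interval, -0.24 to 1.45, included 0. Reference forms were more common in WT, but 5xFAD carried them too, as in 120 of 253 TRAV7 and 69 of 374 TRAV6 chains. In other subgroups, such as TRAV13 (0 of 282), 5xFAD held none, so leaving them out removes 5xFAD chains unevenly. TRAV use was also set side by side among clonotypes whose V region differed from the reference, 756 in WT and 966 in 5xFAD. There TRAV9 stood at 3.31% and 0.41%, a ratio of -2.86, TRAV3 at a ratio of -0.74 and TRAV1 at 0.18, on 25 and 4, 21 and 16, and 15 and 22 clonotypes. The TRAV9 ratio was as large among these chains (-4.29 to -1.42), and that of TRAV1 was inside the 1.5-fold limit (-0.74 to 1.11). All 3 subgroups were below the minimum mean of 20 clonotypes here. The part of the V form in these ratios was not tested.

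Within the WT library the forms were used unequally. TRAV5 made up 2.10% of the 906 clonotypes with a reference V region and 7.80% of the 756 without one, and TRAV7 17.2% and 8.73%. TRAV9 made up 1.66% and 3.31%. These splits compare chains within the same pool of cells, and they depend on which copies of a subgroup are identical in both forms.

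TRAV6, TRAV7 and TRAV13 were the most used subgroups in both libraries. TRAV6 made up 18.8% of WT (17.0 to 20.8) and 23.6% of 5xFAD clonotypes (21.1 to 26.1), and TRAV13 13.1% (11.5 to 14.8) and 18.0% (15.8 to 20.4). Neither interval overlapped between libraries, though both differences were under 1.5-fold. TRAV7 stood at 13.4% and 15.1%. TRAV4 and TRAV14, listed here as favoured by CD4 T cells, both had ratios below 0 and were together 15.7% of WT (13.99 to 17.5) and 11.996% of 5xFAD clonotypes (10.2 to 14.02). Among clonotypes with a V region that differed from the reference TRAV4 turned direction, at 5.16% of WT and 6.52% of 5xFAD (ratio 0.33, -0.22 to 0.89), while TRAV14 stayed below 0 at -0.31 (-0.76 to 0.13).

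TRAJ segments lie in a row from TRAJ61 near the V array to TRAJ2 near the constant gene, and joining moves along that row as the locus rearranges again. TRAJ22 (chr14:54197248-54197307) made up 5.11% of WT (4.11 to 6.29) and 3.15% of 5xFAD clonotypes (2.22 to 4.34), a log2 ratio of -0.69 (-1.23 to -0.14), and was the most used J segment in WT. TRAJ57 (chr14:54158505-54158569), near the V end, made up 1.62% (1.07 to 2.35) and 2.89% (2.00 to 4.03), a ratio of 0.83 (0.11 to 1.55). TRAJ6 (chr14:54212688-54212749), near the other end, made up 1.81% and 1.14%, a ratio of -0.63 whose interval, -1.55 to 0.28, included 0. Over all barcodes with a TRA chain, TRAJ22 stood at -0.55 and TRAJ6 at -0.34, both inside the limit, and TRAJ57 at 0.96. Among clonotypes whose V region differed from the reference TRAJ57 was inside the limit, at 17 of 756 in WT and 32 of 966 in 5xFAD, a ratio of 0.54 (-0.29 to 1.37). Within WT it made up 1.10% of clonotypes with a reference V region and 2.25% of those without one, a ratio whose interval, -0.097 to 2.09, included 0.

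By class, TRAJ segments numbered 50 and above made up 12.03% of WT (10.5 to 13.7) and 14.1% of 5xFAD clonotypes (12.1 to 16.3), with 4 of 6 tested segments above a ratio of 0. Those numbered 20 to 29 made up 17.9% (16.1 to 19.9) and 15.3% (13.3 to 17.5), with 4 of 5 below 0. From 40 upward the share was 31.9% in WT (29.7 to 34.2) and 35.7% in 5xFAD (32.9 to 38.6), with overlapping intervals. Segments numbered 2 to 19 made up 26.4% and 25.7%, those from 30 to 39 23.8% and 23.2%, and those from 40 to 49 19.9% and 21.6%. The next most used segments in WT were TRAJ31 at 4.63% and TRAJ40 at 3.91%. In 5xFAD the first 3 were TRAJ31 at 5.69%, TRAJ40 at 4.55% and TRAJ49 at 4.29%.

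**Figure D4:**
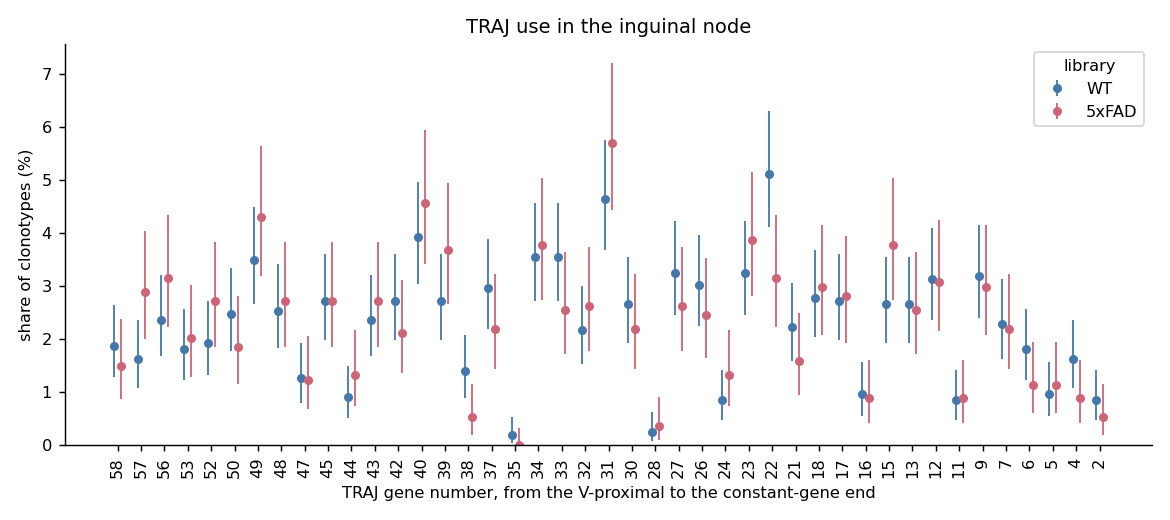
Share of clonotypes (y axis, percent) by TRAJ gene, ordered by number from the V end (left) to the constant-gene end (right), in WT and 5xFAD with exact 95% counting intervals. TRAJ57 was higher in 5xFAD (2.89% against 1.62%) and TRAJ22 lower (3.15% against 5.11%).

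TRBJ use differed by less than 1.5-fold for 12 of 12 genes. TRBJ2-7 was the most used in both, at 16.0% of WT (14.3 to 17.9) and 18.9% of 5xFAD clonotypes (16.7 to 21.3), followed by TRBJ2-5 at 13.96% and 12.9% and TRBJ2-1 at 11.5% and 12.2%. The TRBJ1 cluster made up 36.6% (34.3 to 39.01) and 32.1% (29.4 to 34.9), with 5 of its 6 genes below a ratio of 0, and the TRBJ2 cluster the remaining 63.4% and 67.9%.

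V ratios went with the number of bases that contigs hold ahead of the V region. Of 19 V features with a median of over 100 such bases in WT, 15 were lower in 5xFAD, with a median log2 ratio of -0.33. Of 14 features with 100 or fewer, 11 were higher, with a median of 0.24. Across the 33 features, Spearman's rho of the ratio with this length was -0.53, a description across genes of a pair of libraries that differ in read depth. The same measure was -0.20 in the deep and 0.53 in the superficial cervical node. TRBV19 had the longest stretch, with a median of 226 bases in WT and 190 in 5xFAD, while TRBV2 had 126 and 124 and TRAV9 115 and 115. TRBV15 had 80 in both. The part of contig length in these ratios was not tested.

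**Figure D5:**
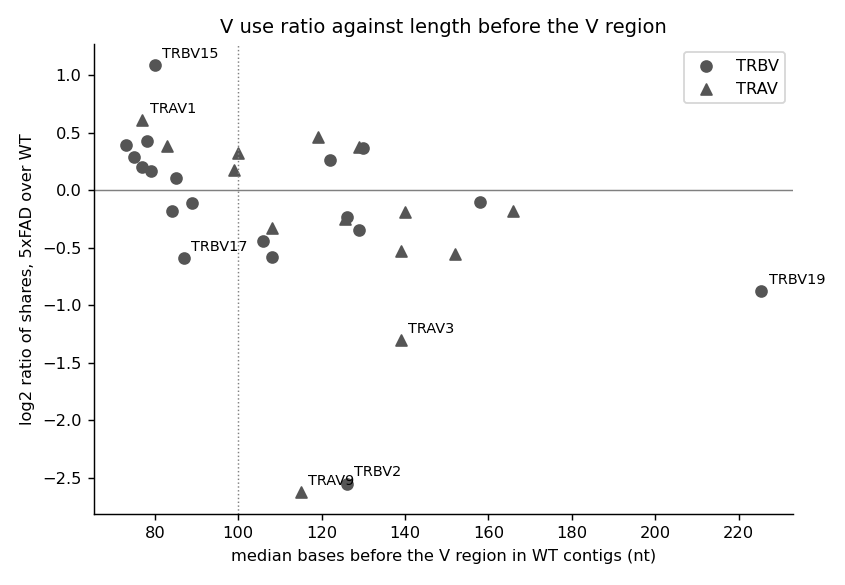
Log2 ratio of shares, 5xFAD over WT (y axis), against the median number of bases ahead of the V region in WT contigs (x axis, nucleotides) for 19 TRBV genes and 14 TRAV subgroups. To the right of the dotted line at 100 bases, 15 of 19 features lay below 0; the 7 named V features are those at least 1.5-fold apart.

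Pairing of V with J was set against the product of V and J shares. In TRB, 228 of 252 possible pairings were seen in WT and 198 in 5xFAD, and WT thinned to 1142 clonotypes held 215 on average over 200 draws. For 51 pairings with at least 20 clonotypes over both libraries, counts were divided by those given by the product of V and J shares. The median was 1.07 in WT and 1.08 in 5xFAD. At least 2-fold higher in 5xFAD were 5 of the 51 (9.8%) and lower 2 (3.92%).

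TRBV4 with TRBJ2-5 was the furthest apart, with 24 clonotypes in WT, 1.44% (0.93 to 2.14), and 4 in 5xFAD, 0.35% (0.10 to 0.89), a log2 ratio of -1.90 (-3.35 to -0.46). This pairing was 1.42 times its product of shares in WT and 0.51 times in 5xFAD. TRBV16 with TRBJ2-7 had 16 and 4 clonotypes, with an interval that included 0. Of the 5 that were higher, 3 used TRBJ2-7, the most used J gene: TRBV29 with it had 10 clonotypes in WT and 18 in 5xFAD (ratio 1.36), TRBV31 13 and 23 (1.34) and TRBV13-1 17 and 25 (1.08). The others were TRBV31 with TRBJ1-4, at 8 and 14 (1.31), and TRBV1 with TRBJ2-4, at 12 and 17 (1.03, interval -0.02 to 2.07). The most used pairing in both libraries was TRBV13-2 with TRBJ2-7, at 2.11% of WT (1.47 to 2.92) and 2.45% of 5xFAD clonotypes (1.63 to 3.52).

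Next in WT were TRBV13-2 with TRBJ2-5 at 1.99%, with TRBJ2-1 at 1.62% and with TRBJ1-1 at 1.56%, and TRBV4 with TRBJ2-5. In 5xFAD the next were TRBV13-1 with TRBJ2-7, TRBV31 with TRBJ2-7, TRBV13-2 with TRBJ2-5 at 1.93% and TRBV1 with TRBJ1-1 at 1.75%. For the 16 TRA pairings tested, the count over the product of shares had a median of 1.37 in WT and 1.29 in 5xFAD. The range was 0.49 to 1.95 in WT and 0.62 to 2.90 in 5xFAD. These 16 of 817 possible TRA pairings, like the 51 of 252 in TRB, were kept for their counts, which favours values above 1. The medians of TRB and TRA therefore cannot be set against each other. Of these 16, 4 (25%) were at least 2-fold higher in 5xFAD and 1 (6.25%) lower. TRAV6 with TRAJ40 rested on 6 clonotypes in WT and 15 in 5xFAD, and TRAV6 with TRAJ9, the lower one, on 17 and 5.

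The order of the TRA locus showed in both libraries. TRAV17 to TRAV21, next to the J segments, joined TRAJ40 or higher in 42 of 51 WT clonotypes, 82.4% (69.1 to 91.6), and in 27 of 33 5xFAD clonotypes, 81.8% (64.5 to 93.0). TRAV1 and TRAV2, at the far end, did so in 1 of 26 and 1 of 22, 3.85% (0.10 to 19.6) and 4.55% (0.12 to 22.8). The J-near subgroups were 3.07% of clonotypes in WT and 2.89% in 5xFAD, and the far ones 1.56% and 1.93%.

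Differences in junction length and added bases lay within counting error, while charge and hydropathy of TRA junctions differed by more than that. TRB junctions measured 41.8 ± 4.29 nucleotides in WT (SD over 1662 clonotypes) and 41.6 ± 4.34 in 5xFAD (1142 clonotypes), and TRA junctions 40.4 ± 3.98 and 40.3 ± 4.19. A junction of 14 amino acids was the commonest TRB length, at 30.0% in WT and 27.4% in 5xFAD. Added bases in TRB averaged 4.04 ± 2.61 and 4.01 ± 2.66, and in TRA 2.56 ± 2.14 and 2.73 ± 2.33. No D gene was named in 25.6% of WT and 23.6% of 5xFAD clonotypes. In these all bases between V and J counted as added in TRB, which may include D bases. Where a D gene was named, added bases averaged 1.81 and 1.75 between V and D, and 1.67 and 1.73 between D and J. TRA junctions with no added base were 20.8% (18.8 to 22.8) and 20.0% (17.7 to 22.4), and TRB junctions with none 6.68% (5.53 to 7.99) and 6.22% (4.89 to 7.78). The differences of these means, 5xFAD minus WT, had 95% counting intervals that included 0: -0.52 to 0.13 nucleotides for TRB length, -0.41 to 0.20 for TRA length, -0.23 to 0.17 for TRB added bases and -0.0087 to 0.33 for TRA added bases.

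D use followed the order of the locus, in which TRBD2 lies behind the TRBJ1 cluster. TRBD1 was named in 91.5% of WT (88.2 to 94.2) and 92.7% of 5xFAD chains (88.6 to 95.7) that had a TRBJ1 gene and 1 D gene named, and in 43.3% (39.8 to 46.8) and 42.2% (38.2 to 46.3) with a TRBJ2 gene. Net charge of the junction without its end residues averaged -0.87 ± 0.98 and -0.90 ± 0.99 in TRB, and 0.56 ± 0.92 and 0.64 ± 0.88 in TRA. Mean hydropathy was -0.78 ± 0.57 and -0.78 ± 0.55 in TRB, and -0.22 ± 0.56 and -0.29 ± 0.56 in TRA. The TRB differences had intervals that included 0. In TRA the charge was higher in 5xFAD by 0.082 (0.015 to 0.15) and the difference in hydropathy, 5xFAD minus WT, was -0.061 (-0.10 to -0.019). The part of V and J use in these differences was not tested.

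Clones were small. WT held 25 clonotypes of 2 or more cells, of which 1 had 3 cells, and 5xFAD held 9, all of 2 cells. They took in 51 of 1688 WT cells, 3.02% (2.26 to 3.95), and 18 of 1151 5xFAD cells, 1.56% (0.93 to 2.46). With WT thinned to 1151 cells the share was 2.04% (SD 0.41 over 200 draws of cells), inside the 5xFAD interval. The 25 WT clones used 13 TRBV genes, TRBV1 and TRBV13-2 in 5 each, and had a median of 3 added TRB bases, against 4 over all WT clonotypes. In 5xFAD both medians were 4.

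Among TRB chains alone, over all barcodes with 1 TRB chain, 90 chains were seen on 2 or more barcodes in WT and 42 in 5xFAD. They covered 184 of 2435 WT barcodes, 7.56% (6.54 to 8.68), and 84 of 2400 5xFAD barcodes, 3.50% (2.801 to 4.32), so that here the intervals did not overlap at nearly the same number of barcodes. In 30 of the 90 WT chains at least 2 of the barcodes also had a TRA chain, and 25 of these 30 shared it, while 5 did not. In 5xFAD 9 of 9 shared it. The remaining 60 and 33 chains had fewer than 2 barcodes with a TRA chain and could not be counted as clones with both chains.

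The WT clone of 3 cells joined TRBV13-1 to TRBJ1-4 and TRAV6 to TRAJ52 and was seen in no other library. Of the 1662 WT clonotypes 10 were seen in another node, 8 in the superficial and 2 in the deep cervical WT library, and of the 1142 5xFAD clonotypes 2 were, 1 in each cervical 5xFAD library. Of the 10 WT clonotypes, 8 were single cells in the inguinal node, among them a MAIT-type chain with TRBV13-3, and a TRBV26 clonotype with 3 cells in the deep cervical node. Between the inguinal WT and 5xFAD libraries 0 clonotypes and 0 TRB chains were shared, but 31 TRA chains were. The junctions of the largest clone and of the widest shared one, which had 2 inguinal and 3 superficial cervical cells, are shown. Those of a clone with 0 added TRB bases, in 2 inguinal cells and 1 superficial cervical cell, are shown beside them, with capitals for bases counted as added. In the TRB junctions of the clone of 3 cells and of the TRBV29 clone no D segment is set apart. Their capitals thus cover all bases between V and J, may include D bases, and cannot be set against those of TRA.

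WT clone of 3 cells, TRB: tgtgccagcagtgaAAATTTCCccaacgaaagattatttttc
WT clone of 3 cells, TRA: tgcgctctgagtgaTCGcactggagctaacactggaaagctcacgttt
TRBV29 clone, TRB: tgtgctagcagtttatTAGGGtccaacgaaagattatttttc
TRBV29 clone, TRA: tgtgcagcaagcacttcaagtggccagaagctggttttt
TRBV16 clone, TRB: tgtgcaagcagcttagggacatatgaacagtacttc
TRBV16 clone, TRA: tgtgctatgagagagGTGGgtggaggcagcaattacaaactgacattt

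Both 5xFAD clonotypes seen in a cervical library had added bases in each chain. One joined TRBV26 to TRBJ2-2, and the other TRBV31 to TRBJ2-3.

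5xFAD clonotype with TRBV26, TRB: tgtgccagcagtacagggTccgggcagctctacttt
5xFAD clonotype with TRBV26, TRA: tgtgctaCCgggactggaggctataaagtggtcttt
5xFAD clonotype with TRBV31, TRB: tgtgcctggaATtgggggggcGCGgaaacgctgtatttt
5xFAD clonotype with TRBV31, TRA: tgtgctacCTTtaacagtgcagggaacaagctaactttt

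Invariant T cells were few. The chain of iNKT cells, which see lipids on CD1d, joins TRAV11 to TRAJ18 over a junction 15 amino acids long. It was carried by 5 of 1688 WT cells, 0.30% (0.10 to 0.69), and by 0 of 1151 5xFAD cells. The exact 95% upper limit of that count of 0 was 0.32% of cells, and the limit of 3 counts 0.261%. All 5 had a TRB partner from the TRBV13, TRBV29 or TRBV1 groups that iNKT cells use, and they were 5 separate clonotypes. Paired or not, 7 WT and 0 5xFAD barcodes had the chain, and 2 of the 7 chains had the reference form of the V region. TRAV11 was seen in 3 and TRAJ18 in 34 5xFAD cells, in 0 together. The counting intervals of the inguinal libraries overlapped. In the deep cervical node the chain was in 3 of 1227 WT and 0 of 2742 5xFAD cells, with overlapping intervals. In the superficial cervical node it was in 6 of 1123 WT cells (0.20% to 1.16%) and 0 of 2326 5xFAD cells (0% to 0.16%). There the intervals did not overlap. The difference between genotypes was not tested. The inguinal WT chains differed at 1 base where V meets J, as the sequences of 4 cells show. Capitals mark an added base. In cells 4 and 5 the junction had 0 added bases, so that there the differing base was assigned to the V or J part.

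WT iNKT cell 1, TRA: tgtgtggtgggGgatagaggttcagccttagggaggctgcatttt
WT iNKT cell 3, TRA: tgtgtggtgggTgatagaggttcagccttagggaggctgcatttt
WT iNKT cell 4, TRA: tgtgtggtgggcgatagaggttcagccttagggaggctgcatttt
WT iNKT cell 5, TRA: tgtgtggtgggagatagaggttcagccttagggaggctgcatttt

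The chain of MAIT cells, which see vitamin B2 metabolites on MR1, is TRAV1 joined to TRAJ33 with a junction of 12 amino acids, and it was carried by 4 cells in each library, 0.24% in WT (0.06 to 0.61) and 0.35% in 5xFAD (0.10 to 0.89). A TRB partner from the TRBV13 or TRBV19 groups that MAIT cells use was found in 1 of 4 WT cells and 3 of 4 5xFAD cells. The same TRA junction, with 0 added bases, was read in both libraries, in 3 of 4 cells each.

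Shared MAIT TRA junction: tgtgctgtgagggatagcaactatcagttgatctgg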

How the data were processed

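Cells came from inguinal nodes, with 1 library for each genotype and no replicates. The submitters' processing notes list Cell Ranger 6.0.1, Seurat 4.1.0 and mm10 without saying what each was used for. Genes had been called with IgBLAST, per the file headers and column set. The deposited counts were UMI and read counts of each contig, not normalized, per the file headers. The deposited fraction was the identity of the V alignment, per the file headers, and was not used further. Other deposited values were lengths in nucleotides of junctions and added bases, per the file headers.

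From these, chains were grouped by barcode. Where a cell had a pair of TRA chains, that with more UMIs was used. Barcodes with extra chains were set aside as possible doublets (2.11% of WT and 1.55% of 5xFAD barcodes), and no other doublet caller was run. TRAV genes were summed by subgroup, which joins near-identical copies whose calls are uncertain. Shares had exact Clopper-Pearson 95% intervals. For log2 ratios 0.5 was added to each count, and their 95% counting intervals were checked on simulated clonotypes. A V or J feature was called at 1.5-fold with a mean of 20 clonotypes, a pairing at 2-fold with 20 over both libraries. A count of 0 was given a limit of 3 counts. Reads are not independent molecules, and intervals cover counting error only. Each V region was looked up, as far as the junction, in the V transcripts of GENCODE on GRCm38, where it had to match at every base; positions are from the same source. The added alternative on these matches was chosen after seeing the data. Python 3.11.15, pandas 2.3.3 and scipy 1.17.1 were used.

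Named features were all those called, the 3 most used of each kind in each library, the most used and called pairings, clones of 3 or more cells or seen in another library, and the lists of V and J segments. Members and lists were chosen with earlier results of these data known. Some genes outside this rule (those in the comparison of contig length and forms within WT) were picked with their values in view. The alternatives changed the counted unit, the cells used, ambiguous calls, minimum counts, the pseudocount and the clone definition. Gene expression and surface protein were not analysed here.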

Additional observations from a re-analysis of the deposited data

Results flagged for a closer look

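Genotype ratios that went one way in the inguinal and the other way in the superficial cervical node, at least 1.5-fold in each, are listed here. Each node had 1 library per genotype, and the difference between nodes was not tested. The log2 ratio of 5xFAD over WT was -2.63 for TRAV9 in the inguinal node and 1.25 in the superficial cervical node. In the latter TRAV9 rested on 9 WT clonotypes, 0.83% (0.38 to 1.57), and 47 in 5xFAD, 2.06% (1.52 to 2.73), with overlapping intervals. For TRBV2 the ratios were -2.55 and 1.23, with superficial cervical shares of 1.29% in WT and 3.11% in 5xFAD. For both features the inguinal WT share (2.41% and 3.31%) was the highest of the 6 libraries compared here. Their inguinal 5xFAD share (0.35% and 0.53%) was the lowest. For TRBV19 they were -0.88 and 1.23, and for TRBV15 1.08 and -0.94. In the deep cervical node the 4 features stood at -0.34, -0.16, -0.06 and 0.34.

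The paired share of barcodes also differed in opposite directions between these nodes. WT minus 5xFAD was 19.7 percentage points in the inguinal node, and -11.7 in the superficial cervical node, where 51.0% of WT and 62.7% of 5xFAD barcodes were paired. The part of pairing in the V ratios was not tested.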

How the results depend on the processing

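Of 108 values of the 10 features under 11 alternatives, 39 equal the reported value because the alternative leaves that feature's counts as they were, and the other 69 kept its direction in 69 cases. The features had been picked for their ratios in these same libraries, and the alternatives recount largely the same chains. A kept direction was therefore likely from the start. The number past 1.5-fold was 28 with UMIs in place of clonotypes, 18 with no minimum and 20 with TRAV counted by first named gene, against 10, and 9 to 15 under the others. With all barcodes, paired or not, 6 of the 10 remained among the 14 past the limit. Among chains whose V region differs from the reference 5 of the 10 remained among 9. This alternative changes TRA counts only, so TRBV2, TRBV15, TRBV17 and TRBV19 had to remain. Of the TRA features TRAJ22 alone did. TRAJ57 was inside the limit, and TRAV9 (mean of 14.5 clonotypes), TRAV3 and TRAV1 (18.5 each) and TRAJ6 (11) fell below the minimum. With ambiguous calls left out TRAV3 stood at -0.58 and TRAV1 at 0.35, inside the limit. TRB pairings past 2-fold numbered 16 with a minimum of 10 clonotypes, against 7, and 10 over all barcodes with 1 TRB chain. The share of cells in clones was 0.47 percentage points higher in WT, 1.46 without thinning and 3.95 by TRB alone. The gap in paired share was 19.7 points, 18.2 with at least 2 UMIs and 21.4 among barcodes with 1 TRB chain. The difference in TRB junction length, -0.20 nucleotides, stayed between -0.25 and -0.18. For the iNKT chain, 7 WT barcodes against 5 cells were counted when pairing was not asked for. The cause of these shifts was not tested. No paired analysis was possible because each genotype had 1 inguinal library. Features with a share near 1% rested on about 10 to 20 clonotypes, which limits their ratios.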
